A study of Mus musculus with 11 samples.

Results

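The data described here are the 3 libraries of cultured primary microglia and the 4 libraries of resident microglia of a mouse brain study, 7 of the 11 libraries of the series. They were taken by their labels, and the question they address is how the whole transcriptome of microglia grown in a dish differs from that of microglia taken straight from the brain. Both groups carried the Cx3cr1-GFP genotype, a reporter in which the fractalkine receptor gene drives green fluorescent protein in microglia and also in other mononuclear phagocytes. The cultured group was labelled as cell culture with no medium, age of the donors or time in the dish, and the resident group as sorted by fluorescence-activated cell sorting with no gate or age. One treatment text is attached to every library of the series: chow with PLX3397 at 600 mg/kg, a CSF1 receptor inhibitor that depletes microglia, in 3 cycles before transplantation. The labels do not say whether the mice behind these 7 libraries received it. From 1 ng of TRIzol-extracted total RNA, libraries were made by Smart-Seq, a method that copies whole messenger RNAs from their poly(A) tail. Culture and the way the cells were collected changed together, so growth in the dish, loss of the brain around the cells and the sort itself cannot be told apart.

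Microglia are the macrophages of the brain parenchyma. They settle there in the embryo, renew themselves in place, and keep a gene programme that depends on signals from neurons, astrocytes and the vessel wall, among them TGF-beta, IL-34 and CSF1. In a dish they lose those signals and attach to plastic, and the microglial signature genes are known to fall within hours to days. The sections below go past that signature, to contact and guidance molecules, transcriptional repressors, oxygen and stress responses, the cytoskeleton, growth factors and matrix enzymes.

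The libraries held between 19055655 and 28219696 expected counts, 26705034 to 28219696 in the cultured and 19055655 to 19965631 in the resident group, and 13370 to 14598 genes with counts. The labels do not say that replicates came from separate animals or cultures. The p-values therefore measure the spread between these libraries only, which, resident replicate 4 aside, may be technical. Libraries of 1 group differed by more than sampling noise, with a mean chi-square per gene of 8.96 to 131.12 where 1 would be counting noise, so none was a copy of another. Cultured replicate 2 stood apart from the other two cultured libraries (mean chi-square 127.32 and 131.12, against 26.85 between the others), and resident replicate 1 from the other resident libraries (49.45 to 53.91, against 8.96 to 9.84). The Y-linked gene Ddx3y was at 96.2, 94.4 and 98.1 CPM in the cultured and at 95.3, 100.8, 94.0 and 0.128 CPM in the resident libraries. Resident replicate 4 was thus the only library of the 7 without it. Its material differed in this from that of the other resident libraries, and the labels give no sex. The resident spread holds this difference and the cultured spread does not. The labelled cell type was checked against its markers. The 10 markers of parenchymal microglia summed to 1290 to 1730 CPM in cultured and 37200 to 43400 CPM in resident libraries and all 10 fell, while 25 markers that macrophages share summed to 18600 to 21500 and 31600 to 34200 CPM, with 6 higher and 11 lower. Markers of other cell types were also counted. Of 5 tested oligodendrocyte markers 1 was higher (Mbp, 0.97 ± 0.10, but -0.16 on the deposited TPM scale) and 1 lower (Mag), and all 6 listed summed to 163 to 196 CPM in cultured and 166 to 177 CPM in resident libraries, most of it Mbp and Cnp, with Mog at 0 in every cultured library. Of 5 astrocyte markers 2 were higher (Aldoc and Aldh1l1) and 2 lower, with sums of 38.7 to 78.7 against 197 to 248 CPM, the latter mostly Slc1a3. Of 5 dendritic markers 2 were higher (Clec9a, and Xcr1 at 1.06 ± 0.39, but -0.01 on the deposited TPM scale) and 3 lower, with sums of 5.60 to 7.05 against 10.5 to 15.5 CPM and Flt3 at 0 in every cultured library. Oligodendrocyte precursor markers summed to 14.9 to 17.9 against 0.128 to 0.680 CPM (2 of 2 higher) and lymphocyte markers to 2.71 to 3.05 against 17.9 to 26.4 CPM (1 higher and 2 lower of 3). The part of such cells in the results was not tested.

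Of 12406 genes tested with edgeR's quasi-likelihood test, 4704 (37.9%) were higher and 4612 (37.2%) lower in cultured cells. These calls used a Benjamini-Hochberg adjusted p under 0.05 and took in 75.1% of the genes tested. The shares that also differed by at least 4-fold were 13.3% (1655 genes) and 12.6% (1569 genes). The groups did not overlap for 75.6% of genes, so a gap between the groups in a gene named below is the common case and does not set it apart. Against that background a list of genes stands out only where its calls lean to 1 side or its fold changes are large, and the median log2 difference over all tested genes was -0.02. Levels are CPM, counts per 1000000 scaled by TMM, and differences are log2 fold changes of cultured minus resident with their standard errors, tested as above. The balance between higher and lower depended on the scaling: with library totals only the median of all genes was -0.60, and on the deposited TPM scale (transcripts per 1000000, which also divides by length) it was -1.07 and 20.9% of the calls were higher, against 50.5% in counts with TMM scaling.

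Cultured cells put more of their RNA into few genes. The 10 most abundant genes took 25.1% to 26.5% of counts in cultured and 12% to 13.2% in resident libraries, and 50% of all counts was reached with 174 to 190 genes against 469 to 491.

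**Figure D1:**
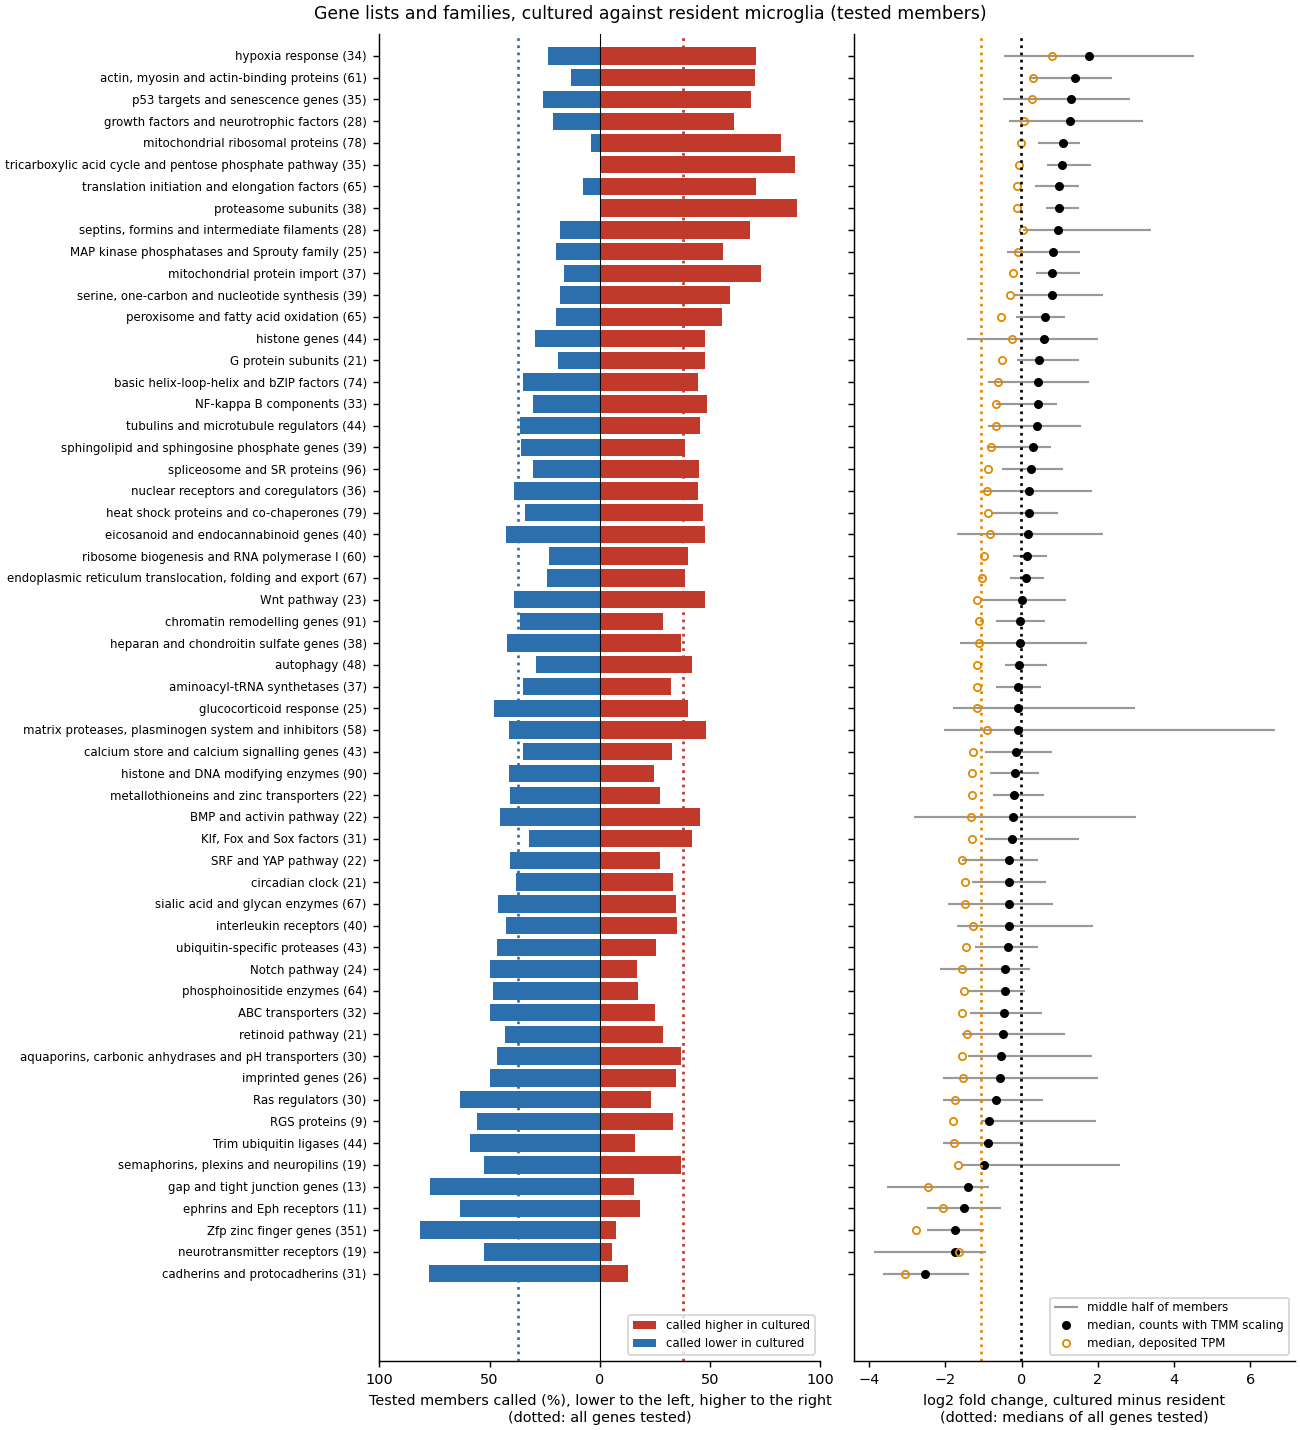
Gene lists and families, with the number of tested members in parentheses. The left panel gives the share of tested members called higher (red) and lower (blue) in cultured cells, with the shares of all genes as dotted lines (37.9% and 37.2%), and the right panel the median log2 fold change with the middle 50% of members, in counts with TMM scaling (black) and on the deposited TPM scale (open), where all genes had medians of -0.02 and -1.07. Hypoxia and actin genes lie at the top, cadherins, neurotransmitter receptors and Zfp genes at the bottom, and most lists with a black median between 0 and about 1 have a TPM median below 0. Most cadherin members that fell are the 18 protocadherin gamma genes that share exons.

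Some genes were found in 1 state only. With at most 3 counts over a whole group and at least 10 CPM on average in the other, 38 genes were read in cultured cells and 35 in resident cells. Among the 38, Gda, the guanine deaminase of purine breakdown, had 238, 292 and 222 CPM in the 3 cultured libraries and 1 count over the 4 resident libraries, a ratio of 23200 with an exact Poisson interval of 4170 to 917000. The acute phase protein Saa3 had 251, 435 and 219 CPM against 3 counts (ratio 9320, interval 3190 to 45200). The scavenger receptor Marco had 103, 94.9 and 91.4 CPM against 3 counts (ratio 2970, interval 1020 to 14400). All 3 genes were therefore high in every cultured library and at or next to 0 in every resident one. Apoc1, an apolipoprotein, the chemokine Cxcl3 and haptoglobin (Hp) belonged to the same set, and Rnase2a, a secreted ribonuclease, had 0 counts in the resident libraries and was at least 1410-fold higher in cultured cells, taken against 3 counts over the group.

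Among the 35 genes of resident cells, Upk1b, a tetraspanin known from the urothelium (chr16:38773182-38800203), had 177, 207, 207 and 213 CPM, and the 3 cultured libraries held 1 count in all, for a ratio of 13000 (interval 2340 to 515000). Csmd3, a very large gene for a transmembrane protein with CUB and sushi domains (chr15:47580638-48792558), had 156, 247, 215 and 225 CPM against 3 counts (ratio 4570, interval 1560 to 22100). Asb2, the substrate receptor of a ubiquitin ligase that acts on filamins, had 98.8, 106, 106 and 93.6 CPM against 1 count (ratio 6580, interval 1180 to 260000). These levels varied little between the resident libraries, with Csmd3 lowest in replicate 1. One gene of the set did vary: Ttr, the transthyretin made by the choroid plexus, was at 0.170, 23.5, 6.12 and 94.0 CPM in the 4 resident libraries, a mean of 30.9 ± 43.2 (SD, n = 4) carried by replicate 4. In bulk RNA, fewer cells that carry a transcript and less of it per cell cannot be told apart.

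For 921 genes (7.42% of those tested) the 95% interval of the log2 difference, in counts with TMM scaling, lay within -0.5 to 0.5. Of these 35 still passed the test, and without cultured replicate 2 the number was 1521. The set was not counted under other scalings. Among the 10 most abundant of them, the cysteine protease Ctss had 5229.7, 4894 and 5102 CPM in cultured and 5316, 5509.8, 5936 and 6588 CPM in resident libraries, a log2 difference of -0.20 ± 0.11. Selenop, a secreted selenoprotein, had 2360.2, 2129.8 and 2142 against 1907, 2098, 1981 and 2153 CPM (0.12 ± 0.10, but -0.98 on the deposited TPM scale). Ctsz, another lysosomal protease, had 1977, 1732 and 1886 against 1614, 1638, 1678 and 1733 CPM (0.16 ± 0.10, but -0.95 on the deposited TPM scale). Tmbim6, Hexa, Cd53, Cd9, Itm2c, Sat1 and Ly86 completed the 10 highest. Ctss thus lay near its resident level in counts with TMM scaling, where the parenchymal microglia markers fell together. On the deposited TPM scale, whose median over all genes was -1.07, Ctss was at -1.31.

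The largest family that leaned to 1 side was that of the Zfp genes, most of which encode zinc finger proteins, and many of them repressors that carry a KRAB domain, recruit the corepressor Trim28 and the methyltransferase Setdb1, and silence transposable elements. The table held 388 genes of this name and 351 were tested. In cultured cells 286 (81.5%) fell and 25 rose, against 37.2% and 37.9% of all genes, 139 fell by at least 4-fold and 5 rose by at least 4-fold, and the median log2 difference was -1.74. This median lay between -2.76 and -1.59 under every scaling tried, the removal of the trend with transcript length included (-1.59), and between -1.80 and -1.75 when 1 library at a time was left out. Well-read members leaned the same way: of the 158 Zfp genes with at least 20 CPM in the higher group 134 (84.8%) fell, with a median of -1.60, where 35.2% of the 7520 other genes at that level fell and their median was 0.15.

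Zfp715 stood at 24.0, 10.9 and 23.1 CPM in the cultured libraries and 116, 116, 123.4 and 116 CPM in the resident ones (-2.61 ± 0.25, adjusted p = 1.36e-05). Zfp62 stood at 23.8, 12.5 and 21.1 against 99.5, 115, 100.8 and 103 CPM (-2.45 ± 0.21, adjusted p = 6.00e-06). For both, each cultured library was below each resident library, and cultured replicate 2 was the lowest. Zfp712, in a cluster on chromosome 13, was nearly lost, with 0.137, 0 and 0.140 CPM against 12.8, 11.2, 10.1 and 13.4 CPM (-6.92 ± 0.44). A few members went the other way. Zfp622, which is a ribosome biogenesis factor rather than a KRAB repressor, had 36.4, 122.8 and 111 CPM in cultured and 4.93, 3.86, 4.30 and 3.49 CPM in resident libraries (4.44 ± 0.39, adjusted p = 6.84e-06), and Zfp568 68.5, 70.2 and 67.6 against 14.7, 11.98, 10.5 and 10.7 CPM (2.52 ± 0.13, adjusted p = 2.98e-07), again without overlap. Of the partners, Setdb1 fell (55.6, 31.8 and 51.8 against 109, 78.1, 90.7 and 90.0 CPM, -0.99 ± 0.20), and Trim28 was called higher in counts (43.9, 118 and 59.2 against 41.0, 37.5, 44.0 and 38.0 CPM, 0.88 ± 0.29), a call that ended without resident replicate 2 or 4 (0.83 each) and a sign that turned on the deposited TPM scale (-0.35). Cultured replicate 2 held the highest Trim28 level, and without it the difference was 0.33. The mRNA decay factor Zfp36, whose zinc fingers bind RNA, was not called. Resident replicate 1 held 2159 CPM of it and the other resident libraries 199, 189 and 166, and without replicate 1 the log2 difference was 1.59.

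**Figure D2:**
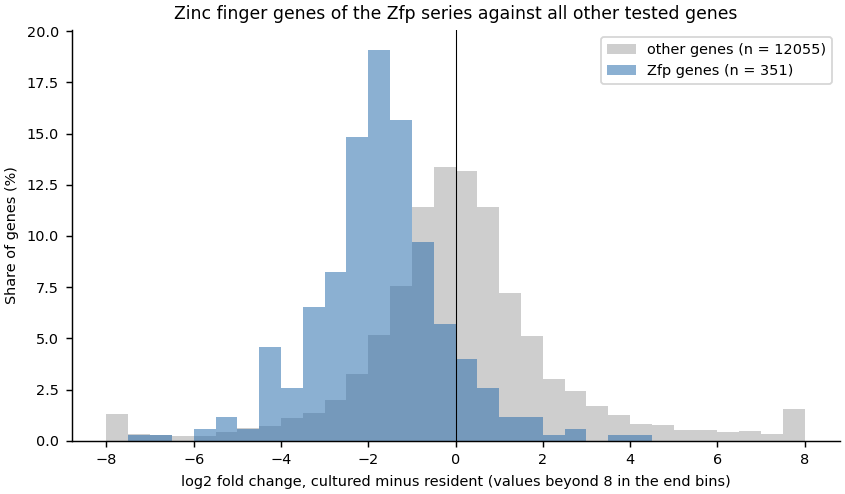
Distribution of log2 fold changes of cultured minus resident cells for 351 tested Zfp genes (blue) and 12055 other tested genes (grey), as a share of each set, with values beyond 8 in the end bins. The Zfp genes centre on -1.74, and this centre stayed below 0 under every scaling tried.

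Many Zfp genes lie in tandem clusters, and position went with the size of the drop. Of 161 Zfp genes with at least 2 others within 100 kb 87.6% fell (median -1.95), of 44 with 1 other 90.9% (-1.86), and of 146 with none 71.9% (-1.36). The pattern of neighbours moving as a block was not limited to this family. Runs of at least 4 tested genes next to each other that all differed by at least 4-fold in 1 direction numbered 23 among lowered genes (160 genes) and 22 among raised genes (104 genes).

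The longest run was a stretch of chromosome 14 (chr14:3049285-7658936, GRCm38) with 37 tested genes from Gm2897 to Gm38418, most of them with predicted-gene names. All of them fell, by 6.30 to 13.85 on the log2 scale in the fit. The upper end is Gm3005, a gene with 0 counts in the cultured libraries, so it is not a measured fold. Gm3005, Gm3488 and Gm3739 all had 0 counts there. Taken against 3 counts over the group, they were at least 1780-fold, 1530-fold and 1330-fold lower. These genes are near-copies: for the 31 with a transcript, a median of 89.7% of the 31-base words of each was found in another gene of the run, so the counting could share reads among them and they are better read as 1 locus. The same holds for the 10 genes from Gm10778 to AU041133 on chromosome 10 (95.9% of words shared) and in part for the 18 protocadherin gamma genes from Pcdhga1 to Pcdhga12 (46.2%), which share their constant exons. It does not hold for the Zfp runs, Zfp235 to Zfp93 (chr7:24132372-24277794, 9.2% shared), Zfp712 to Zfp455 (chr13:67038594-67209298, 4.6%) and Zfp354c to Zfp354a (chr11:50811085-51072799, 1.4%), each with 6 genes down.

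Among the runs that rose, Gfra4, Adam33, Siglec1, 1700037H04Rik, Spef1, Cenpb and Cdc25b (chr2:131039632-131198511) rose by 2.66 to 8.13, 7 genes with no shared words. S100a1, S100a13, S100a4, S100a6, S100a8, S100a11 and S100a10 (chr3:90511034-93564645) are small calcium-binding proteins of 1 family, also with no shared words. S100a4 stood at 92.2, 148 and 83.9 CPM against 0.298, 0.521, 0.532 and 0.468 CPM (7.88 ± 0.28) and S100a6 at 45.1, 66.6 and 31.2 against 0.170, 0.174, 0.0443 and 0.128 CPM (8.46 ± 0.39). The neutrophil markers summed to 9.70 to 19.8 CPM in cultured and 0.085 to 0.222 CPM in resident libraries, nearly all of it S100a8, with Mpo, Elane, Camp and Ngp at or under 0.280 CPM in every library. The part of other cells in the S100a genes was not tested. Csf2rb to Rac2 (chr15:78325800-78572783) joined the common beta chain of the GM-CSF and IL-3 receptors, at 1499, 1147 and 1411 CPM against 204, 195, 206 and 184 CPM (2.78 ± 0.12), to the phagocyte GTPase Rac2, at 720.3, 576 and 694 against 143, 144, 145 and 153 CPM (2.18 ± 0.11).

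**Figure D3:**
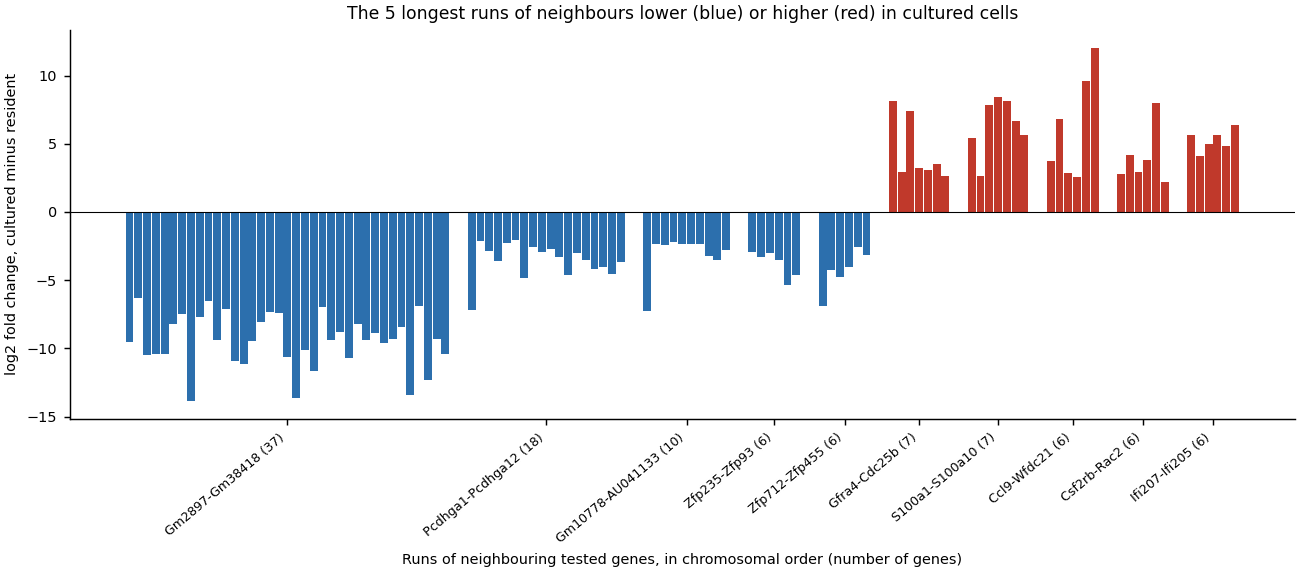
Log2 fold changes of the genes in the 5 longest runs of neighbours that were all at least 4-fold lower (blue) and the 5 longest that were all at least 4-fold higher (red) in cultured cells, in chromosomal order with the number of genes in each run. The run of 37 genes on chromosome 14 is made of near-copies that share 89.7% of their 31-base words (median).

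Molecules of cell contact fell more often than they rose. Cadherins and protocadherins join cells through like partners, and of 31 tested members 24 fell and 4 rose, 20 of them at least 4-fold lower, with a median of -2.54. Of those 24, 18 were the protocadherin gamma genes that share exons, and all 18 were at least 4-fold lower. The lean and the median of this list therefore rest largely on that cluster. Cdh23, a cadherin known from the hair cells of the inner ear, had 0.182, 0.278 and 0.187 CPM in cultured and 98.7, 83.6, 93.6 and 85.9 CPM in resident libraries (-8.68 ± 0.19, adjusted p = 4.91e-09). E-cadherin (Cdh1) was the opposite, with 12.9, 6.498 and 11.2 CPM against 0, 0.0434, 0 and 0 CPM (9.29 ± 0.57, adjusted p = 7.24e-07). Neither pair of groups overlapped, as was so for 75.6% of all genes tested.

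Junction genes fell more often than they rose, with 10 of 13 lower, 2 higher and a median of -1.41. The junctional adhesion molecule F11r, which binds itself on neighbouring cells and leukocyte integrins, was at 105, 79.6 and 95.1 CPM in cultured and 1010.1, 1064, 1120.2 and 1123 CPM in resident libraries (-3.54 ± 0.14, adjusted p = 4.85e-08). Its relatives Jam2 (0.866, 0.882 and 0.327 against 108, 117, 122 and 116 CPM, -7.37 ± 0.26) and Jam3 (0.0456, 0 and 0 against 23.5, 26.4, 20.2 and 22.1 CPM, -10.10 ± 0.40) were close to absent from culture, as was the tight junction protein Ocln (0, 0 and 0.746 against 9.10, 11.5, 6.74 and 6.08 CPM, -5.05 ± 0.84). The scaffold Tjp1 fell from 82.3, 73.8, 83.8 and 81.2 CPM in the resident to 11.4, 10.4 and 10.8 CPM in the cultured libraries (-2.88 ± 0.11). Endothelial markers moved with these genes, with sums of 9.56 to 9.89 CPM in cultured and 44.9 to 60.1 CPM in resident libraries, of which Pecam1 made 34.4, 50.6, 44.4 and 46.8 CPM in the resident ones. Of 4 tested endothelial markers Pecam1, Kdr (-4.56 ± 0.61) and Cdh5 (-1.57 ± 0.57) were lower and Flt1 (3.0 ± 0.52) higher, and Cldn5 and Tek were at or under 0.0868 CPM in every library. Their part in the fall was not tested.

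Guidance molecules, which steer axons and also set leukocyte movement, moved in both directions. Of 19 semaphorins, plexins and neuropilins 10 fell and 7 rose (median -0.98). The ligand Sema4d fell from 406, 388, 433 and 391 CPM in resident to 97.2, 62.1 and 94.0 CPM in cultured libraries (-2.26 ± 0.17), and Sema4g to 0, 1.11 and 0.373 from 23.3, 27.0, 24.8 and 22.1 CPM (-5.61 ± 0.60). Among the receptors, Plxna1, which serves secreted semaphorins and pairs with Trem2 in myeloid cells, rose to 227, 271 and 212 CPM from 12.8, 10.3, 10.1 and 8.84 CPM (4.50 ± 0.15, adjusted p = 2.35e-08). Plxnd1 (6.63 ± 0.37), Plxna2 (6.64 ± 0.49) and Plxnc1 (4.27 ± 0.23) rose as well, while Plxna4 (-1.78 ± 0.12) and Plxnb2 (-0.98 ± 0.14) fell. The coreceptor Nrp1 had 194, 156 and 174 CPM against 176, 205, 186 and 191 CPM (-0.12 ± 0.11), and its groups overlapped. Of 11 ephrins and Eph receptors 7 fell and 2 rose (median -1.52), with the ligand Efnb1 at 0.0456, 1.30 and 1.35 against 30.6, 32.8, 46.4 and 39.1 CPM (-5.37 ± 0.55) and the receptor Ephb3 at 0 counts in the cultured and 4.72, 6.77, 5.23 and 4.04 CPM in the resident libraries.

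Receptors for transmitters fell more often than they rose, with 10 of 19 lower, 1 higher and a median of -1.75. The GABA-B receptor subunit Gabbr1 was at 0.0911, 0.511 and 0.140 against 24.95, 23.8, 22.2 and 20.9 CPM (-6.51 ± 0.39), and Adrb1 at 0.273, 0.0928 and 0 against 6.29, 5.95, 4.34 and 9.10 CPM (-5.64 ± 0.61). No cultured library reached the resident range for either gene. Neuronal markers summed to 1.76 to 2.80 CPM in cultured and 5.48 to 6.80 CPM in resident libraries. Of 4 tested neuronal markers 3 were lower (Gad1, Snap25 and Rbfox3; median of the 4 -2.23), and the excitatory neuron gene Slc17a7 was at or under 0.177 CPM in every library. Their part in the fall was not tested.

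In the BMP and activin list, 10 of 22 rose and 10 fell (45.5% each, against 37.9% and 37.2% of all genes). The classic targets, the Id proteins that block basic helix-loop-helix factors, rose: Id2 stood at 714, 845 and 728 CPM in cultured and 87.1, 17.4, 17.0 and 24.1 CPM in resident libraries (4.39 ± 0.58, adjusted p = 1.07e-04), and Id1 at 111, 178 and 108 against 0.425, 0.130, 0.0886 and 0.595 CPM (8.70 ± 0.41, adjusted p = 1.35e-07). Id2 in resident replicate 1 was 87.1 CPM, above the other resident libraries and still far below the cultured range. The ligand Bmp2 rose to 17.4, 16.4 and 18.8 from 0.0850, 0.0434, 0.222 and 0.170 CPM (7.02 ± 0.32). The coreceptor Eng fell to 13.9, 9.75 and 17.0 from 294, 257, 330.1 and 279.9 CPM (-4.42 ± 0.21, adjusted p = 1.67e-07), and the receptors Acvr2b (-3.47 ± 0.37) and Acvr2a (-2.43 ± 0.20) and the receptor-activated Smad5 (-1.69 ± 0.13) fell with it.

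In the Notch list 12 of 24 fell and 4 rose (median -0.43). Numb, an adaptor that antagonises Notch, fell to 27.8, 12.7 and 26.8 CPM from 304, 315, 316 and 309.6 CPM (-3.79 ± 0.27, adjusted p = 1.82e-06). Rbpj, the DNA-binding partner of the cleaved receptor, rose to 309, 391.6 and 317 from 63.6, 60.6, 64.6 and 63.7 CPM (2.43 ± 0.11, adjusted p = 1.35e-07), and the ligand Jag1 rose (4.30 ± 0.30). The receptors Notch1 (73.4, 90.3 and 74.3 against 81.4, 60.5, 70.8 and 65.6 CPM, 0.19 ± 0.13, but -0.90 on the deposited TPM scale) and Notch2 (302, 409 and 315 against 442, 331, 382 and 331 CPM, -0.12 ± 0.15) were not called and overlapped. The target Nrarp fell (-6.35 ± 0.70) and the target Hes1 was not called (3.28, 8.40 and 20.1 against 11.1, 5.04, 6.65 and 6.16 CPM). Of 23 Wnt pathway genes 11 rose (47.8%) and 9 fell (39.1%), against 37.9% and 37.2% of all genes. Their median was 0.02 (-1.16 on the deposited TPM scale). The effector Ctnnb1 stood at 191, 299 and 255 against 62.7, 67.4, 72.4 and 76.1 CPM (1.83 ± 0.15). The secreted inhibitor Dkk2 stood at 3.92, 4.36 and 7.93 CPM against 0 counts in the resident libraries.

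Inside the cell, regulators of Ras and phosphoinositides fell more often than they rose. Of 30 Ras regulators 19 fell and 7 rose (median -0.66), and of 64 phosphoinositide enzymes 31 fell and 11 rose (-0.44). Among the diacylglycerol-driven Ras exchange factors, Rasgrp3 fell (38.0, 34.9 and 30.7 against 334, 313, 307 and 320.0 CPM, -3.21 ± 0.12) and Rasgrp1 rose (35.1, 22.0 and 36.7 against 0, 0.217, 0.266 and 0.553 CPM, 6.88 ± 0.50). Inpp5d, the phosphatase SHIP1 that removes PIP3, was at 218, 142 and 221 CPM in cultured and 1146, 932, 1079 and 1024 CPM in resident libraries (-2.43 ± 0.18, adjusted p = 2.44e-06), without overlap. Of 25 MAP kinase phosphatases and Sprouty proteins 14 rose and 5 fell, with a median of 0.83 in counts but -0.10 on the deposited TPM scale. Spry2 (7.67 ± 0.46) and Dusp5 (6.71 ± 0.70) rose and Dusp6 fell (-1.50 ± 0.27), all of them feedback inhibitors of the ERK pathway.

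In the NF-kappa B list 16 of 33 rose (48.5%) and 10 fell (30.3%), against 37.9% and 37.2% of all genes. The median was 0.43 (-0.66 on the deposited TPM scale and -0.16 with library totals). Nfkbia, the inhibitor that holds NF-kappa B in the cytoplasm, was at 838, 985 and 786 CPM in cultured and 219.6, 115, 97.5 and 146 CPM in resident libraries (2.59 ± 0.26, adjusted p = 1.63e-05), and the kinase Ikbke at 157, 105 and 164 against 0.170, 0.304, 0.665 and 0.213 CPM (8.70 ± 0.34, adjusted p = 4.58e-08). The precursor Nfkb1 fell to 55.9, 59.3 and 45.2 from 161, 149.6, 149.6 and 149 CPM (-1.51 ± 0.12).

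The response to low oxygen was the list with the highest median among all lists examined. Cells sense oxygen through prolyl hydroxylases (Egln genes) that mark HIF-1alpha (Hif1a) and HIF-2alpha (Epas1) for destruction by Vhl, and HIF binds the core ACGTG in its target genes. Of 34 tested genes 24 rose and 8 fell, 15 rose by at least 4-fold, and the median was 1.77 in counts and 0.79 on the deposited TPM scale. Of the 34 genes, 29 had a promoter in the RefSeq table (GRCm38.p6). ACGTG was searched on both strands over 250 bases before and 50 after the start. It was in 62.1% of these 29 promoters and in 25.7% of the promoters of all 10000 tested genes with one. These letters are also part of the E-box CACGTG. The list was made of genes known from the response to low oxygen, so its share may follow from that choice and says nothing of culture. Its promoters were also richer in GC (median 64.3% against 60.7%) and CpG (25 against 20). Among members that fell, Ppfia4, Ddit4, P4ha1 and Pfkfb3 held the core and Vhl, Kdm3a, Pfkfb4 and Hif1an did not. The genes that rose or fell by at least 4-fold did not hold it more often than all genes did (25.3% and 18.3%). The 250 bases before the start of 3 members that rose are printed because each holds the core. Bnip3 lies at chr7:138909507-138909756 on the minus strand, Slc2a1 at chr4:119108495-119108744 on the plus strand and Ero1a at chr14:45318573-45318822 on the minus strand, each written 5′ to 3′ in the direction of the gene. Capitals mark ACGTG or its reverse complement CACGT, and both overlap in CACGTG of Bnip3. A match is a description of the letters and says nothing of binding in these cells.
Bnip3: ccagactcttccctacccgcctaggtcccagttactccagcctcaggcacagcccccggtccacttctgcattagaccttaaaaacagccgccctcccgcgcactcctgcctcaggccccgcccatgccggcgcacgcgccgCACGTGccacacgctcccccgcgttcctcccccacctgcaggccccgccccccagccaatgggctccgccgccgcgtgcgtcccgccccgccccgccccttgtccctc
Slc2a1: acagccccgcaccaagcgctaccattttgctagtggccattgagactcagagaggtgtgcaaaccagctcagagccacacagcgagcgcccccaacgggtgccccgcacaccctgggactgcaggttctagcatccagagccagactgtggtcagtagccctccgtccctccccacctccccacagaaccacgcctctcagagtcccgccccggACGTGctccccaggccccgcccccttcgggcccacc
Ero1a: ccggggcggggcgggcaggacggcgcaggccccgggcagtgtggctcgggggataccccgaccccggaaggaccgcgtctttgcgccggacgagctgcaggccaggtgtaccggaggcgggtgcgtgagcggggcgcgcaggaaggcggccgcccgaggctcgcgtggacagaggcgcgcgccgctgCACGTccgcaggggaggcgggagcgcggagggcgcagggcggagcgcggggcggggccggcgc

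Bnip3, a mitochondrial protein of mitophagy, stood at 653, 474 and 655 CPM in the cultured libraries and 33.5, 37.4, 35.7 and 39.0 CPM in the resident ones (4.03 ± 0.15, adjusted p = 3.34e-08). Slc2a1, the glucose transporter GLUT1, stood at 468, 292 and 463 against 106, 90.9, 88.3 and 87.0 CPM (2.13 ± 0.17, adjusted p = 4.30e-06), and Ero1a, the oxidase that drives disulfide formation, at 411, 263 and 417 against 13.7, 14.5, 14.7 and 17.0 CPM (4.60 ± 0.19, adjusted p = 5.75e-08). Every cultured library was above every resident one, with cultured replicate 2 the lowest of the 3 each time. Among the sensors, Egln3 rose from 1.70, 0.998, 1.11 and 1.02 CPM in resident to 288, 419.7 and 276 CPM in cultured libraries (8.08 ± 0.25) and Egln1 rose (2.37 ± 0.27), while Vhl fell (-1.22 ± 0.10). The factors themselves rose: Hif1a stood at 467, 274 and 495 against 106, 114, 112 and 113 CPM (1.89 ± 0.19, adjusted p = 1.55e-05), and Epas1 at 102, 90.1 and 98.2 against 0.128, 0.0434, 0.133 and 0.383 CPM (9.09 ± 0.30, adjusted p = 2.02e-08). Hilpda, an inhibitor of lipolysis on lipid droplets, reached 509, 586 and 505 CPM from 9.52, 6.86, 7.27 and 7.23 CPM (6.11 ± 0.16), and the peptide hormone Adm 26.2, 22.5 and 24.4 CPM from 0.0425, 0, 0 and 0.0425 CPM. ACGTG was not found in the promoter windows of Hilpda, Adm and Vegfa. Vegfa, the vascular growth factor, was at 24.4, 70.2 and 18.5 CPM in cultured libraries, highest in replicate 2, and 0.0425, 0.347, 0.0443 and 0.0425 CPM in resident ones (8.24 ± 0.72). The list did not rise as one: Ddit4, an mTORC1 inhibitor, fell from 14.4, 17.8, 6.29 and 33.8 CPM to 1.78, 1.44 and 1.68 CPM (-3.47 ± 0.54), and P4ha1, a collagen prolyl hydroxylase, fell (-1.03 ± 0.14) while its relative P4ha2 rose (7.52 ± 0.26). Bhlhe40, a circadian and hypoxia-induced repressor, had the highest fold change of the list (1098, 942 and 1044 against 0.935, 0.955, 0.842 and 1.19 CPM, 10.02 ± 0.17). The oxygen tension and density of the cultures are not in the labels.

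**Figure D4:**
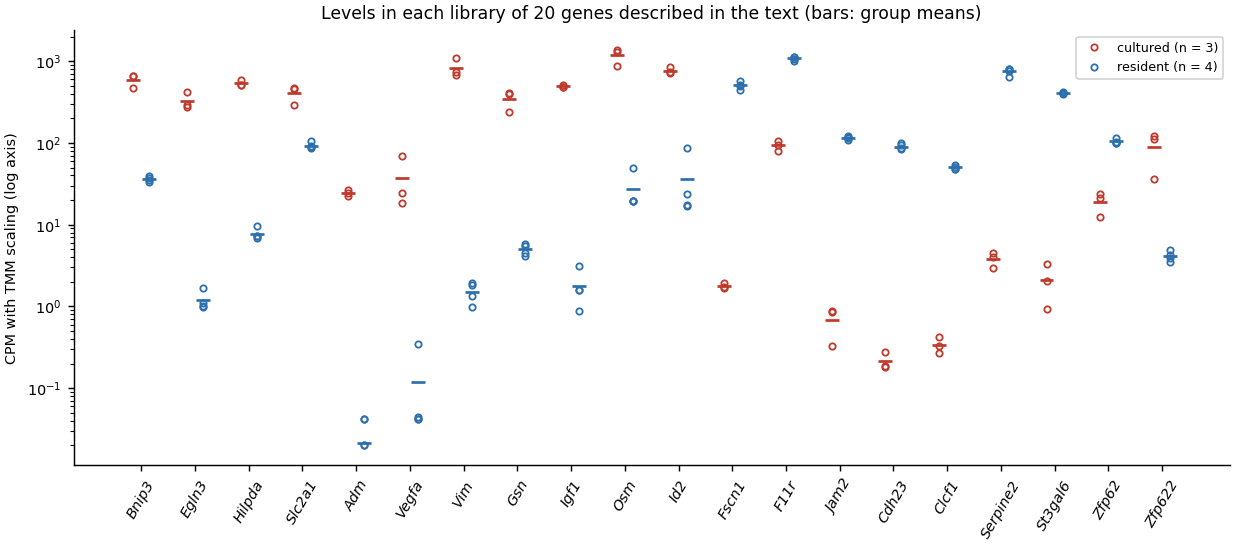
CPM with TMM scaling (log axis) of 20 genes in each cultured (red, n = 3) and resident (blue, n = 4) library, with bars at the group means, and values of 0 drawn at the lowest mark. The groups are apart for every gene shown, in the direction given in the text, and did not overlap for 75.6% of all genes tested.

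The p53 and senescence list also leaned upward, with 24 of 35 higher, 9 lower and 11 at least 4-fold higher (median 1.30, 0.28 on the deposited TPM scale). The cell cycle inhibitor Cdkn1a was at 737, 1167 and 687 CPM in cultured and 31.5, 11.5, 14.1 and 14.4 CPM in resident libraries (5.59 ± 0.39, adjusted p = 1.70e-06), the kinase Plk2 at 259.8, 134 and 267 against 10.9, 0.955, 0.842 and 0.935 CPM (6.0 ± 0.88), and Mdm2, the ligase that degrades p53, at 239, 152 and 246 against 88.6, 79.2, 81.8 and 77.1 CPM (1.38 ± 0.16, and 0.28 and not called on the deposited TPM scale). Cultured and resident libraries did not overlap for these 3 genes, as for 75.6% of all genes tested, and resident replicate 1 was the highest of its group for each. Trp53 itself fell (94.6, 88.1 and 99.3 against 144, 141, 165 and 150.0 CPM, -0.67 ± 0.10), as did Sesn1 (-1.49 ± 0.22) and Btg2 (-2.24 ± 0.77), whose resident replicate 1 held 2208 CPM against 321, 297 and 264. Without that library the log2 difference of Btg2 was -0.88 and still called, and without any 1 cultured library its adjusted p by edgeR was 0.0617 to 0.0635. Without resident replicate 1 Plk2 rose by 7.88 and Id2, described above, by 5.26. Stmn1, a tubulin-binding protein of dividing cells, rose and was at 126, 203 and 127 against 14.9, 11.2, 11.3 and 18.4 CPM (3.44 ± 0.24), and the ribonucleotide reductase subunit Rrm2 rose (4.81 ± 0.39).

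Of 25 targets of the glucocorticoid receptor 10 were higher and 12 lower. Tsc22d3 (GILZ), which mediates part of the anti-inflammatory action of the hormone, fell to 24.7, 26.9 and 28.6 CPM in cultured from 286, 152, 132 and 289.6 CPM in resident libraries (-3.01 ± 0.31, adjusted p = 2.01e-05), and the chaperone Fkbp5 to 21.2, 30.3 and 15.5 from 94.1, 66.4, 55.6 and 97.9 CPM (-1.81 ± 0.27, adjusted p = 2.51e-04). The resident libraries differed among themselves, with replicates 1 and 4 above replicates 2 and 3 for both genes, and all 4 lay above the cultured range. The metallothioneins Mt1 (313, 464 and 211 against 25.4, 18.6, 14.3 and 16.4 CPM, 4.14 ± 0.29) and Mt2 (6.81 ± 0.36) and the kinase Pdk4 (8.15 ± 0.76) rose, as did Hsd11b1 (9.58 ± 0.47), which regenerates active hormone. Among 21 clock genes 7 (33.3%) rose and 8 (38.1%) fell, near the shares of all genes. Hlf, a PAR bZIP output factor, had 0 counts in the cultured libraries and 9.78, 8.51, 7.93 and 11.3 CPM in the resident ones. The clock repressors Nr1d1 (-2.73 ± 0.32) and Nr1d2 (-2.72 ± 0.28) fell, and Nfil3, which opposes the PAR factors, rose to 134, 171 and 213 from 9.31, 8.03, 9.97 and 8.20 CPM (4.28 ± 0.17). The hour of collection is not in the labels, and its part was not tested.

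Genes of the actin cytoskeleton leaned upward. Of 61 actin, myosin and actin-binding genes 43 rose and 8 fell, 21 by at least 4-fold upward and 1 downward, with a median of 1.41 (0.31 on the deposited TPM scale). The single gene that fell so far was Fscn1, the fascin that bundles filaments in thin protrusions, at 1.69, 1.72 and 1.96 CPM in cultured and 571, 448, 506 and 494 CPM in resident libraries (-8.14 ± 0.17, adjusted p = 4.78e-09). Gsn, the severing protein gelsolin, rose to 411, 236 and 399 from 4.55, 5.56, 5.85 and 4.17 CPM (6.12 ± 0.24, adjusted p = 4.84e-08). Actg1 (4022, 4457 and 3520.4 against 704, 477, 513 and 548 CPM, 2.83 ± 0.16), Flna (979.9, 748 and 999 against 126, 109.7, 120.0 and 118 CPM, 2.94 ± 0.13) and the Arp2/3 subunit Arpc1b (1494, 1394 and 1415 against 386, 363, 395 and 398 CPM, 1.90 ± 0.10), which belong to cortical and branched actin, were higher in every cultured library. The leukocyte coronin Coro1a fell (-0.75 ± 0.10).

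Among intermediate filament and lamin genes, Vim (vimentin) was at 739, 1093 and 673 CPM in cultured and 1.36, 1.82, 0.975 and 1.91 CPM in resident libraries (9.10 ± 0.30, adjusted p = 1.95e-08), and the nuclear lamin Lmna at 127, 109 and 118 against 1.83, 2.00, 2.97 and 2.85 CPM (5.61 ± 0.19, adjusted p = 1.95e-08). Septin9 (4.48 ± 0.17), the formin Inf2 (5.87 ± 0.31) and the linker Plec (5.63 ± 0.19) rose too, 19 of 28 in this list (median 0.96, 0.04 on the deposited TPM scale). Tubulin genes changed partner: Tubb6 rose to 533, 359.7 and 540.0 from 17.98, 15.2, 16.3 and 17.2 CPM (4.84 ± 0.17), Tuba1a fell to 112, 94.7 and 107 from 469, 366, 354 and 382 CPM (-1.91 ± 0.14), and Tppp, a protein that nucleates microtubules outside the centrosome, fell to 0, 0.139 and 0.0467 from 153, 134, 153 and 139 CPM (-11.07 ± 0.32). Fibroblast and mural markers summed to 2.69 to 5.43 CPM in cultured and 0.765 to 1.32 CPM in resident libraries. The 2 tested of them, Col1a1 (3.56 ± 0.61) and Acta2 (2.45 ± 0.52), were higher in cultured cells, and Col3a1, Dcn and Pdgfrb were at or under 0.510 CPM in every library. The part of such cells was not tested.

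Growth factors that these cells could release were exchanged. Of 28 tested genes 17 rose and 6 fell (median 1.26, 0.06 on the deposited TPM scale). Igf1 was at 518, 484 and 482 CPM in cultured and 0.893, 3.13, 1.60 and 1.57 CPM in resident libraries (8.10 ± 0.35, adjusted p = 8.86e-08), and Osm, oncostatin M of the IL-6 family, at 1369, 885 and 1304 against 49.5, 19.4, 19.7 and 19.5 CPM (5.46 ± 0.40, adjusted p = 2.06e-06). Hbegf, an EGF receptor ligand, rose (47.3, 63.0 and 42.9 against 5.65, 3.34, 4.34 and 5.10 CPM, 3.47 ± 0.21). In the other direction, Clcf1, a cytokine that signals through the CNTF receptor, was at 0.273, 0.418 and 0.327 against 54.1, 48.2, 51.0 and 47.7 CPM (-7.19 ± 0.18, adjusted p = 6.03e-09), and Pdgfb, the ligand for pericytes, at 3.14, 5.01 and 4.25 against 51.7, 44.5, 45.8 and 43.9 CPM (-3.49 ± 0.18, adjusted p = 2.22e-07). None of these 5 genes overlapped between the groups, and neither did 75.6% of all genes tested. Of 40 receptors for interleukins and colony-stimulating factors 14 (35.0%) were higher and 17 (42.5%) lower, near the shares of all genes. Il10ra, the receptor for IL-10, fell to 106, 62.6 and 104 from 1219, 1106, 1107 and 1017 CPM (-3.61 ± 0.21, adjusted p = 5.28e-07), and Csf3r, the G-CSF receptor, to 95.3, 34.9 and 96.8 from 771, 728, 773 and 684 CPM (-3.29 ± 0.34), lowest in cultured replicate 2, against the rise of Csf2rb given above.

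Matrix enzymes and their inhibitors moved far in both directions, with 25 of 58 at least 4-fold higher and 15 at least 4-fold lower (median -0.09). The elastase Mmp12 was at 562, 357 and 518 CPM in cultured and 0.638, 1.30, 0.842 and 1.02 CPM in resident libraries (8.97 ± 0.27, adjusted p = 1.36e-08), and Plaur, the urokinase receptor, at 429, 371 and 399 against 14.03, 13.5, 9.48 and 13.01 CPM (5.0 ± 0.16). Timp1, a metalloprotease inhibitor, had 11.7, 14.8 and 9.28 CPM against 0 counts in the resident libraries, and the urokinase inhibitor Serpinb2 19.2, 10.2 and 17.6 CPM against 0 counts. Serpine2, an inhibitor of thrombin and plasminogen activators, fell to 2.92, 4.04 and 4.53 from 649, 814, 753 and 802 CPM (-7.62 ± 0.22, adjusted p = 1.04e-08), and Cst3 (cystatin C), the most abundant gene by TPM in resident cells, to 2232, 2887 and 2154 from 19299, 22414, 20656 and 22638 CPM (-3.13 ± 0.14, adjusted p = 1.17e-07). Adamts16 had 0 counts in cultured and 21.9, 31.6, 25.7 and 24.1 CPM in resident libraries, and Mmp2 fell to 3.92, 1.49 and 2.24 from 58.3, 62.4, 60.4 and 58.1 CPM (-4.55 ± 0.28).

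Of 38 heparan and chondroitin sulfate genes of the cell coat 14 (36.8%) rose and 16 (42.1%) fell, shares near those of all genes. Among the proteoglycan cores that rose, Sdc3 stood at 776, 916 and 802 CPM in cultured and 31.7, 33.1, 29.6 and 39.4 CPM in resident libraries (4.64 ± 0.14, adjusted p = 1.38e-08), Srgn, the core of secretory granules, at 1013, 1196 and 975.2 against 80.6, 76.9, 77.5 and 86.7 CPM (3.72 ± 0.12), and Vcan at 28.7, 33.8 and 33.6 against 0.340, 0.304, 0.355 and 0.510 CPM (6.39 ± 0.20). Among the sulfotransferases in this list, those that fell included Chst7 (0.456, 0.511 and 0.0933 against 91.3, 93.1, 93.0 and 87.3 CPM, -7.99 ± 0.30), Chst2 (-4.24 ± 0.81) and Ust (-4.88 ± 0.78). Of the sialic acid and glycan enzymes 31 of 67 fell (46.3%) and 23 rose (34.3%). St3gal6, a sialyltransferase, fell from 421, 413, 395 and 409 CPM in resident to 2.05, 0.928 and 3.31 CPM in cultured libraries (-7.61 ± 0.38, adjusted p = 2.05e-07) and Gne, the first enzyme of sialic acid synthesis, fell (-1.90 ± 0.18), while B3gnt8 rose to 58.6, 45.2 and 52.8 from 1.02, 1.09, 1.73 and 1.32 CPM (5.34 ± 0.20).

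Of 40 eicosanoid and endocannabinoid genes 19 rose (47.5%) and 17 fell (42.5%), against 37.9% and 37.2% of all genes. Their median was 0.17 (-0.82 on the deposited TPM scale). The prostaglandin E2 receptor Ptger3 had 0 counts in cultured and 8.89, 10.4, 11.03 and 12.9 CPM in resident libraries, while Ptger4 was at 122.5, 72.7 and 132 against 1.11, 0.738, 0.443 and 0.723 CPM (7.16 ± 0.31, adjusted p = 8.09e-08) and Ptger2 at 12.9, 8.45 and 13.3 against 0, 0.0434, 0.0886 and 0.0425 CPM (7.89 ± 0.44). Inducible cyclooxygenase Ptgs2 rose (29.8, 17.5 and 32.5 against 0.680, 0.304, 0 and 0.213 CPM, 6.44 ± 0.55), and the prostaglandin-degrading enzyme Hpgd fell (36.9, 32.2 and 35.3 against 208, 201, 220.5 and 231 CPM, -2.63 ± 0.11). Daglb, the lipase that makes the endocannabinoid 2-arachidonoylglycerol in microglia, fell to 125, 68.6 and 120.0 from 769, 784, 856 and 789 CPM (-2.94 ± 0.22, adjusted p = 2.21e-06), its relative Dagla fell (-3.13 ± 0.21), and so did the cannabinoid receptor Cnr2 (9.02, 10.02 and 13.996 against 35.2, 33.6, 35.7 and 35.7 CPM, -1.67 ± 0.16).

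Transcription factors outside the microglial set moved in both directions. Of 74 basic helix-loop-helix and bZIP factors 33 rose (44.6%) and 26 fell (35.1%), against 37.9% and 37.2% of all genes. By at least 4-fold 17 rose and 3 fell, and the median of the list was 0.43 (-0.61 on the deposited TPM scale). Ahr, the aryl hydrocarbon receptor, was at 97.5, 102 and 116 CPM in cultured and 0.0425, 0.174, 0.177 and 0 CPM in resident libraries (9.999 ± 0.33, adjusted p = 1.95e-08), and Tfec, of the MiT family, at 142, 145 and 142 against 0.213, 0.434, 0.133 and 0.170 CPM (9.20 ± 0.23, adjusted p = 6.36e-09). Mycl (0, 0.371 and 0 against 23.1, 19.4, 17.5 and 21.0 CPM, -7.30 ± 0.61) and Bach2, a repressor of effector programmes (6.15, 5.99 and 5.23 against 77.6, 73.8, 71.7 and 70.7 CPM, -3.66 ± 0.12), fell. Of 36 nuclear receptors and coregulators 16 (44.4%) rose and 14 (38.9%) fell, with a median of 0.20 (-0.90 on the deposited TPM scale). Rara, a retinoic acid receptor, was at 124, 170.4 and 153 against 0.170, 0.478, 0.0886 and 0.0425 CPM (9.54 ± 0.37, adjusted p = 4.85e-08), and the estrogen receptor Esr1 fell to 0.273, 0.789 and 1.12 from 13.9, 14.1, 13.3 and 9.56 CPM (-4.12 ± 0.39). Klf12 fell (3.65, 4.83 and 2.75 against 97.4, 112, 116 and 103 CPM, -4.83 ± 0.20), and no Hox gene of 11 in the table had enough counts to be tested. Writers and erasers of histone and DNA marks moved little, 22 of 90 higher, 37 lower and 5 by at least 4-fold, one of them the DNA demethylase Tet1 (0.319, 0 and 1.12 against 21.7, 28.1, 25.7 and 22.9 CPM, -5.67 ± 0.61).

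Several biosynthetic lists leaned upward in counts, and others did not. Of 38 proteasome subunits 34 rose (median 0.98), of 78 mitochondrial ribosomal proteins 64 rose and 3 fell (1.08), of 65 translation factors 46 rose and 5 fell (0.98), and of 35 genes of the tricarboxylic acid and pentose phosphate pathways 31 rose (1.06). On the deposited TPM scale these 4 medians were -0.12, -0.01, -0.12 and -0.06, all of them above the median of all genes on that scale (-1.07). Single enzymes moved further than their lists. Acly, which makes cytosolic acetyl-CoA, stood at 2757, 1042 and 2811 CPM in cultured and 245, 199.99, 230.1 and 234 CPM in resident libraries (3.28 ± 0.31, adjusted p = 1.09e-05), with cultured replicate 2 below the other two cultured libraries, and the NADPH source Idh1 at 807, 488 and 773 against 43.6, 48.6, 45.5 and 46.0 CPM (3.91 ± 0.18, adjusted p = 1.31e-07). In nucleotide synthesis 23 of 39 rose and 7 fell (median 0.81, -0.30 on the deposited TPM scale), with the uridine-cytidine kinase Uck2 at 64.6, 119 and 118 against 1.11, 0.955, 1.11 and 0.893 CPM (6.62 ± 0.26). The aminoacyl-tRNA synthetases did not share this, with 12 of 37 higher and 13 lower (median -0.08). Of 60 genes of ribosome biogenesis and RNA polymerase I 24 were higher and 14 lower (median 0.14, -0.98 on the deposited TPM scale), and of 67 genes of endoplasmic reticulum translocation and folding 26 were higher and 16 lower (0.11, -1.03 on the deposited TPM scale). Of 96 spliceosome genes 43 were higher and 29 lower (0.24, -0.89 on the deposited TPM scale).

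Transcript length went with the direction of change. Among the decile of genes with the shortest effective transcripts (98 to 974 bases) 72.3% rose and 12.4% fell (median 1.38), and among the decile with the longest (6008 bases and more) 25.7% rose and 51.8% fell (median -0.48). When each library's trend of level on length was removed, the medians of the 10 groups lay between -0.17 and 0.00. Length bears on many lists: with it removed, 35 of 58 list medians moved by at least the SD between replicates and 13 changed sign. The median of the mitochondrial ribosomal proteins was then 0.06 and that of the proteasome 0.29. That of the 44 tested histone genes turned from 0.59 to -1.24. Length bore less on the hypoxia (1.71), actin (1.02), p53 (1.45), tricarboxylic acid (0.96), cadherin (-2.72) and Zfp (-1.59) lists. The cadherin value rests largely on the 18 protocadherin gamma genes that share exons. Every cultured library was also deeper than every resident one, and the part of depth in the length trend was not tested.

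**Figure D5:**
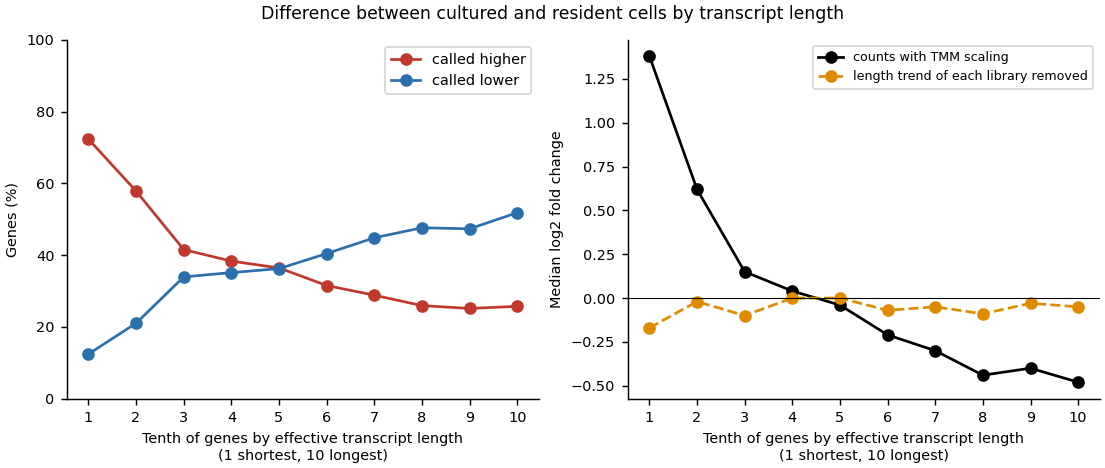
Deciles of tested genes by effective transcript length, shortest at 1. The left panel gives the share called higher (red) and lower (blue) in cultured cells, which runs from 72.3% higher in the shortest decile to 51.8% lower in the longest, and the right panel the median log2 fold change before (black, 1.38 to -0.48) and after (orange) each library's trend on length was removed.

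Promoters of the genes that moved most differed in composition. The 300 bases around the start had a median GC of 60.7% over all genes, 59.3% for those at least 4-fold higher, 57.7% for those at least 4-fold lower and 54.3% for the Zfp genes, with 20, 18, 14 and 14 CpG dinucleotides. The share of genes at least 4-fold lower was 18.6% in the quintile of promoters poorest in GC (17.2% without Zfp genes) and 9.60% in quintile 4. The quintile poorest in GC also held the largest share of genes at least 4-fold higher, 16.0% against 11.1% to 12.8% in the others. Of 16 motifs searched, the ETS site CCGGAAGT was in 8.54% of all promoters and in 4.71% and 4.79% of those of genes at least 4-fold higher and lower. The AP-1 site TGACTCA was in 3.43%, 5.49% and 3.65%, and TATAAA in 7.27%, 11.2% and 8.93%. These shares describe letters in the window and were not tested.

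Replicates of the cultured group spread wider than those of the resident group. Among genes with at least 50 CPM the median SD of the log2 level was 0.231 over the 3 cultured and 0.086 over the 4 resident libraries (3575 and 3289 genes). The cultured genes with the widest spread included 3 that were low in replicate 1: the complement chain C1qc stood at 786, 2881 and 3787 CPM, Marcksl1 at 38.5, 135 and 188 CPM and the GTPase Rac1 at 214, 537 and 803 CPM. In the resident group an SD above 1 was seen for 13 genes, against 4 in the cultured group. The early gene Fos stood at 1509.7, 6.29, 1.73 and 1.57 CPM there and the heat shock gene Hspa1a at 344, 2.39, 5.32 and 15.3 CPM, both high in replicate 1. Fos, at 241, 243 and 229 CPM in the cultured libraries, was not called, and without resident replicate 1 its log2 difference was 6.18. Hspa1a, at 2.28, 0.696 and 3.27 CPM, was called lower (-5.46 ± 1.85), but its groups overlapped, the difference was -1.91 without resident replicate 1, and the call ended without any 1 cultured library.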

How the data were processed

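Messenger RNA was measured in 3 cultured and 4 resident libraries. The authors deposited, per the file headers, 1 table of 16894 genes with read counts, TPM and FPKM for each library. The estimated counts, as the authors deposited them per the file headers, are not normalized, were whole within 0.005 for 81.5% to 84.9% of values, and were rounded here. The deposited TPM was used as an alternative. The FPKM the authors deposited served only to derive, together with the counts, the effective transcript length of each gene. That length was the median over those of the 11 libraries with enough counts, the transplanted ones included. HISAT, Bowtie2 and GRCm38.p6 are named in the submitters' processing notes, without roles. No header or label states the strand setting, so overlapping and antisense genes cannot be told apart.

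Genes were filtered with filterByExpr, scaled by TMM and tested with edgeR 4.0.16 (quasi-likelihood, R 4.3.3), with Benjamini-Hochberg adjustment over 12406 genes and a call at 0.05. On simulated counts 71 of 100 genes changed 2-fold and 95 of 100 changed 4-fold were called, and 11 of 12206 unchanged ones. Few genes changed in that simulation, where 75.1% were called in the data. It therefore cannot give the error rate when most genes and the scaling move. Alternatives used DESeq2 1.42.0, limma 3.58.1 on log2(TPM + 0.1), other scalings and filters, the removal of the trend with length, a replicate block and each library left out. The deposited identifiers matched RefSeq for 99.7% of genes. Standard errors were derived as the absolute log2 difference divided by the square root of the quasi-likelihood F statistic. The 95% intervals of log2 differences rest on them. Poisson intervals cover counting error only. The gene lists and members were chosen with earlier results of these data known, list patterns were corrected after the symbols were seen and 1 list was dropped, so lists are described by counts and medians without a test. Named genes were the extremes and the most abundant called members of lists, the largest gains and losses, genes at or near 0 in 1 group, the highest genes at a like level, the widest spreads, long runs, and members whose role the text needs. Some list members and 1 list are not reported here.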

Additional observations from a re-analysis of the deposited data

Results flagged for a closer look

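In the resident group, 18 of the genes named here had 1 library far from the other 3, with a gap to the nearest library above Dixon's 95% critical value for 4 samples, as a share of the range. Of the genes named, those with at least 1 CPM in the group were examined (176), and chance flags about 1 in 20 groups. Fos, Ddx3y and Hspa1a were named for their wide spread in this group, so that rate does not hold for them. In most of them resident replicate 1 was the high library, with shares of 0.997 for Fos, 0.989 for Plk2, 0.988 for Osm, 0.983 for Zfp36, 0.971 for Btg2, 0.962 for Hspa1a, 0.933 for Nfkb1, 0.903 for Marcksl1, 0.899 for Id2, 0.853 for Cdkn1a, 0.848 for Zfp235, 0.847 for Hilpda and 0.844 for Egln3. Upk1b (0.831) was low in replicate 1. In Nfkb1, Upk1b and Zfp715 the 4 libraries were close in level, and a narrow range rather than a large gap set the share. Replicate 4 was low for Ddx3y (0.932) and Esr1 (0.839) and high for S100a1 (0.901), and replicate 3 was high for Zfp715 (0.955).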

How the results depend on the processing

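Counts of calls moved with the scaling. Genes called higher numbered 4704 with TMM, 3054 with library totals and 2192 on the deposited TPM scale, and genes called lower 4612 with TMM and 8312 on that scale. At least 4-fold, 872 were higher on the TPM scale (1655 with TMM) and 2379 with library totals and 3186 on the TPM scale were lower (1569 with TMM). Of 58 lists 26 had a median above 0 with TMM, 14 with library totals and 5 on the TPM scale. The median of the shortest minus the longest decile of genes was 1.87 in counts. It was 1.70 in deposited TPM and -0.12 after the length trend was taken out. Genes at or near 0 in 1 group depended on the cutoffs: read in cultured cells were 38, and 12 with 0 counts, 58 from 5 CPM and 25 from 20 CPM, and in resident cells 35, and 15, 63 and 23. Genes at a like level numbered 921 within 0.5, 147 within 0.32 and 3703 within 1, and 627 to 1521 with 1 library left out. They were counted with TMM scaling only. With library totals or deposited TPM the median of all genes (-0.60 and -1.07) itself lay beyond 0.5, so which genes count as alike depends on the scaling. Runs that rose numbered 22, and 67 from 3 genes and 8 from 5, and runs that fell 23, and 51 and 14. Leaving out each library gave 4355 to 4911 genes higher and 4308 to 5151 lower. Of the 9316 calls, 8623 to 9078 remained in the same direction and 0 changed sign.

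The direction of some named genes turned. With library totals these were Cd9 (-0.43), Ctsz (-0.42), Hexa (-0.47), Ly86 (-0.47), Notch1 (-0.39), Selenop (-0.47) and Tmbim6 (-0.38). On the deposited TPM scale they were Cd9 (-0.95), Ctsz (-0.95), Hexa (-1.0), Ly86 (-1.0), Mbp (-0.16), Notch1 (-0.90), Rac1 (-1.14), Selenop (-0.98), Tmbim6 (-0.90), Trim28 (-0.35) and Xcr1 (-0.01). With the length trend removed they were Cd9 (-0.72), Ctsz (-0.43), Ly86 (-1.09), Notch2 (0.35) and Nrp1 (0.25), and with 1 library left out Fos ranged from -1.10 to 6.18 and Zfp36 from -0.59 to 1.59, the positive ends without resident replicate 1. The cause was not tested. Replicate numbers are shared by 6 libraries but did not pair them, with correlations of same-numbered libraries of -0.008, 0 and 0.059. The replicate block gave 4196 genes higher and 4271 lower, against 4392 and 4366 without a block in the same 6 libraries. Depth limits genes of under about 1 CPM, and 3 against 4 libraries limits the precision of every difference.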

Other observations

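Nav3, which guides growing microtubules and is best known from neurons, was at 0.547, 0.0928 and 0.467 CPM in cultured and 311, 351, 297 and 328 CPM in resident libraries (-9.75 ± 0.35, edgeR's quasi-likelihood test, Benjamini-Hochberg adjusted p = 2.85e-08). Whrn, a scaffold of hair cell stereocilia, was at 0.0911, 0 and 0.0933 against 57.6, 60.1, 56.8 and 50.8 CPM (-9.71 ± 0.30), and Col27a1, a fibrillar collagen of cartilage, at 0.365, 0 and 0 against 134, 111, 122 and 122.9 CPM (-9.89 ± 0.50). Cdh23, described above, is likewise known from hair cells. Chst8, a sulfotransferase of hormone glycans, fell from 50.3, 55.5, 51.0 and 52.0 CPM to 0, 0 and 0.0467 CPM.

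Imprinted genes moved in both directions, 9 of 26 higher and 13 lower (median -0.57). Igf2r, which clears IGF2 and carries lysosomal enzymes, was at 34.6, 30.2 and 28.0 CPM in cultured and 0.298, 0.0868, 0.487 and 0.383 CPM in resident libraries (6.60 ± 0.32), and the retrotransposon-derived Peg10 at 0, 0.139 and 0.187 against 1.91, 0.998, 1.24 and 1.49 CPM (-3.64 ± 0.65). Of 44 Trim ubiquitin ligases 26 fell and 7 rose (median -0.87). Trim65 was at 7.88, 4.97 and 9.28 against 50.2, 34.4, 42.4 and 40.6 CPM (-2.50 ± 0.23) and Trim47 at 10.1, 15.9 and 31.6 against 66.7, 59.4, 86.5 and 66.7 CPM (-1.86 ± 0.34). Among 39 sphingolipid genes 15 (38.5%) rose and 14 (35.9%) fell, near the shares of all genes (median 0.31, -0.79 on the deposited TPM scale). The kinase Sphk1, which makes sphingosine phosphate, rose to 9.66, 6.87 and 10.2 from 0.0850, 0.0868, 0.0443 and 0.170 CPM (6.44 ± 0.36), while its receptor S1pr1 fell to 75.1, 56.7 and 70.1 from 137, 173, 127 and 128 CPM (-1.07 ± 0.15). For these 4 genes no cultured library lay within the resident range.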
